A study of Rattus norvegicus with 8 samples.

Results

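At day 3 of primordial germ cell-like cell (PGCLC) induction in rat, 5848 of 22228 named genes stood apart from every other state measured. These were chosen by value alone. A gene counts as separated when its values in both day 3 libraries lie above, or both lie below, all 6 values of the other 3 states. Of the 5848 genes, 4358 were above and 1490 below. They are ranked by the gap, the distance on the log2(TPM+1) scale (TPM, transcript abundance per gene length and library size) from the nearer day 3 value to the nearest other value. A filter of at least 1 TPM in at least 2 of the 8 libraries left 13571 genes, among them 3670 separated above and 1295 below. The other 688 above and 195 below did not pass it. Since the rule used the day 3 values, the separated genes are described by their values and gap, without a test.

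Primordial germ cells are the founders of sperm and eggs. In rodent embryos they arise from the posterior epiblast under BMP4, close to the primitive streak where WNT signalling induces mesoderm. In mouse, PRDM1, PRDM14 and TFAP2C then direct the germ cell programme and mesodermal genes are shut off again. Later, in the gonad, germ cells switch on genes such as Ddx4 and Dazl that prepare them for meiosis.

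All groups are cells of the strain Crlj:WI, labelled wild type although the PGCLC were sorted with a Nanos3-T2A-tdTomato reporter. The PGCLC_d3 group was sorted for tdTomato after 3 days with BMP4 at 500 ng/ml, LIF at 1000 U/ml, SCF at 100 ng/ml and EGF at 50 ng/ml. In the PGCLC_d3ag3 group, 5000 such cells had spent 3 further days with 50000 somatic cells of female gonads at E15.5, from which c-KIT-positive cells had been removed, before a second sort. Epiblast-like cells (EpiLC) had been aggregated for 60 h in activin A (20 ng/ml) with 12 ng/ml of bFGF. KSR, a serum replacement, is listed at 1% for EpiLC and 5% for PGCLC_d3ag3, and not for PGCLC_d3 or ESC. Embryonic stem cells (ESC) grew on mouse fibroblasts with PD0325901 at 1 µM, CHIR99021 at 3 µM and rat LIF at 1000 U/ml. Each group has 2 libraries, and the labels do not state separate cultures. A p-value here therefore reflects variation among these libraries, possibly technical only.

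Replicate libraries correlated at r = 0.9946 to 0.9975 across genes, and the third principal component (18.2% of the variance) set PGCLC_d3 at 51.5 to 52.0 against -49.6 to 22.2 in the other libraries. Read totals are not given. Relative depth, read from the steps between low values, was 1.14 and 1.32 in PGCLC_d3, against 2.17 and 2.38 in PGCLC_d3ag3, 1.16 and 1.5 in EpiLC and 1 and 1.37 in ESC. In bulk samples fewer cells of a type and less RNA per cell cannot be told apart. Summed over 6 germ cell markers the level was 1400 to 1420 TPM in PGCLC_d3, against 1130 to 1150 TPM in PGCLC_d3ag3, 45.2 to 58.8 TPM in EpiLC and 1360 to 1370 TPM in ESC. In ESC nearly all of that sum was Dppa3, and Prdm1 and Nanos3 averaged under 1 TPM there. Each of the 6 gonadal somatic markers averaged under 1 TPM in PGCLC_d3, and their sum was 1.26 to 1.44 TPM there, against 7.08 to 7.82 TPM in PGCLC_d3ag3, 16.7 to 17.5 TPM in EpiLC and 3.70 to 4.58 TPM in ESC. The 6 fibroblast markers summed to 3.00 to 6.11 TPM in PGCLC_d3, against 12.0 to 14.9 TPM in PGCLC_d3ag3, 43.5 to 82.0 TPM in EpiLC and 21.3 to 27.1 TPM in ESC. Of these 6, Dcn and Lum were listed at 0 in PGCLC_d3, and Col1a1 and Col1a2 averaged at least 1 TPM.

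How many genes lie above depends on the scaling. As deposited, 27.0% of tested genes were separated above and 9.54% below in PGCLC_d3. After median-of-ratios rescaling the counts were 2543 above and 2110 below, and after quantile normalization 2489 above and 2124 below. Separation as such was not particular to day 3. By the same rule, as deposited, 2643 tested genes were above and 2832 below in PGCLC_d3ag3. EpiLC had 2303 above and 2638 below, and ESC 2395 and 3271. Median-of-ratios rescaling gave 2973 and 2720 in PGCLC_d3ag3, 2736 and 2252 in EpiLC, and 2745 and 2983 in ESC. The median difference of PGCLC_d3 over all tested genes was 0.178 against PGCLC_d3ag3, 0.211 against EpiLC and 0.251 against ESC on the log2 scale as deposited. Rescaled by median of ratios these medians were 0.037, 0.00345 and 0.0549. Most gaps were small, with a median of 0.344 above and 0.234 below. As deposited, a gap of at least 1 was found for 520 genes above and 139 below, and a gap of at least 3 for 18 above and 16 below. Gaps of at least 1 numbered 398 above and 167 below after median-of-ratios rescaling, and 328 and 197 after quantile normalization.

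**Figure D1:**
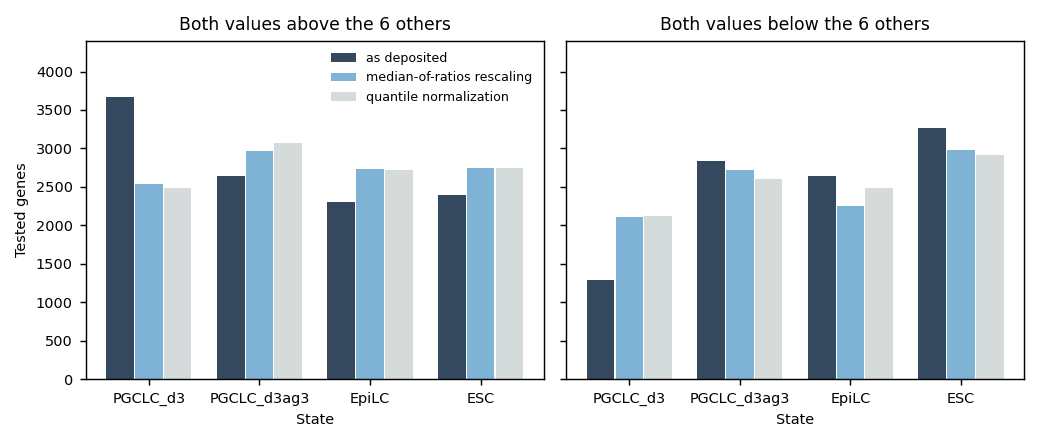
Number of tested genes (y axis) whose values in both libraries of a state (x axis) lie above (left) or below (right) the 6 other values, under 3 scalings. PGCLC_d3 has 3670 above as deposited but 2543 and 2489 after rescaling, and 1295 below as deposited but 2110 and 2124 after rescaling.

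With limma over the tested genes, 2747 (20.2%) were called higher in PGCLC_d3 than in all 3 other states and 873 (6.43%) lower. These shares are the background for the list counts that follow, which rest on the same values as the rule and are a description. Against PGCLC_d3ag3 alone 70.4% of genes were called (44.8% higher and 25.7% lower), so that 63.6% of the calls were higher, and after median-of-ratios rescaling 52.5% of the calls were higher. Against EpiLC 74.9% of genes were called (47.3% higher and 27.6% lower), and against ESC 77.0% (49.6% higher and 27.4% lower). The share of calls that were higher was 63.2% against EpiLC and 64.4% against ESC as deposited, and 50.3% and 53.5% after that rescaling.

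Over the 520 genes with a gap of at least 1 above, the median level on the log2(TPM+1) scale was 0.709 in ESC, 1.27 in EpiLC, 4.01 in PGCLC_d3 and 1.95 in PGCLC_d3ag3. Over the 139 genes below it was 4.56 in ESC, 4.04 in EpiLC, 0.832 in PGCLC_d3 and 3.78 in PGCLC_d3ag3. Among all tested separated genes, whatever their gap, the nearest other value came from PGCLC_d3ag3 for 51.9% of the 3670 above and 49.9% of the 1295 below.

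**Figure D2:**
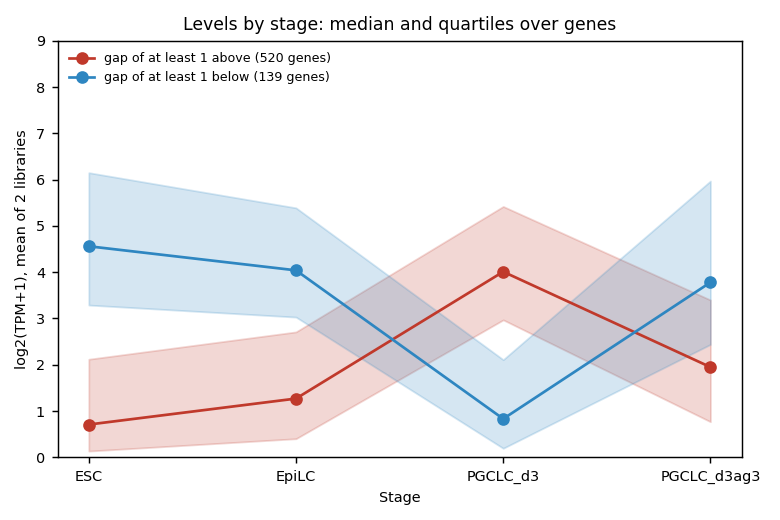
Median (points) and quartiles (bands) over genes of the level on the log2(TPM+1) scale (y axis) at each stage (x axis), for the 520 genes with a gap of at least 1 above and the 139 below. The medians in PGCLC_d3 are 4.01 and 0.832.

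BMP targets were the list with the highest share of separated members. Of 17 tested BMP targets, 14 were called higher in PGCLC_d3 than in all 3 other states and none lower, and 16 were separated above. Their median difference was 2.37 against PGCLC_d3ag3, 3.71 against EpiLC and 3.18 against ESC on the log2 scale. Id2, an inhibitor of basic helix-loop-helix factors, had 503 and 563 TPM in PGCLC_d3, against 59.9 and 67.1 TPM in PGCLC_d3ag3, 65.2 and 66.1 TPM in EpiLC and 38.1 and 36.7 TPM in ESC. Bambi, a decoy receptor that dampens TGF-beta and BMP signalling, had 217 and 246 TPM in PGCLC_d3, against 27.3 and 28.4 TPM in PGCLC_d3ag3, 17.2 and 15.48 TPM in EpiLC and 15.96 and 14.2 TPM in ESC. The homeobox gene Dlx3 had 25.6 and 25.9 TPM in PGCLC_d3, against 1.94 and 1.94 TPM in PGCLC_d3ag3, 0.428 and 0.483 TPM in EpiLC and 0 and 0 TPM in ESC. In each of these genes the day 3 libraries lay far above the other 6, with gaps of 2.89, 2.89 and 3.18. BMP4 was in the medium of PGCLC_d3 by design.

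Hand1, a basic helix-loop-helix factor of extraembryonic and lateral mesoderm, had 53.6 and 53.4 TPM in PGCLC_d3, against 0.0512 and 0.517 TPM in PGCLC_d3ag3, 3.55 and 2.83 TPM in EpiLC and 0 and 0 TPM in ESC. Its gap was 3.58, and the EpiLC values were the nearest. The promoters of Hand1 and Fgf8 are shown because these genes are among the largest gaps of the mesoderm, BMP and FGF lists. Sequences are from RefSeq on GRCr8, from 250 bases before to 50 after the gene start, 5′ to 3′ on the gene's strand. Capitals mark matches on either strand to ATCAAAG (TCF/LEF core), GGCGCC (SMAD1/5 element), GTCTAG (SMAD box), GCCNNNGGC (TFAP2) or TTCNNNGAA (STAT).
Hand1, chr10:42509635-42509934, minus strand: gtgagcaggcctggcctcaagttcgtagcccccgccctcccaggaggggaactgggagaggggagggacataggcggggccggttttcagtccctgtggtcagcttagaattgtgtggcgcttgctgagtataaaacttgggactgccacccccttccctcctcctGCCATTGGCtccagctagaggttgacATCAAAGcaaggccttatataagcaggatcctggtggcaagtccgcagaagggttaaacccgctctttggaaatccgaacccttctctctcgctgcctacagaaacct
Fgf8, chr1:254539556-254539855, minus strand: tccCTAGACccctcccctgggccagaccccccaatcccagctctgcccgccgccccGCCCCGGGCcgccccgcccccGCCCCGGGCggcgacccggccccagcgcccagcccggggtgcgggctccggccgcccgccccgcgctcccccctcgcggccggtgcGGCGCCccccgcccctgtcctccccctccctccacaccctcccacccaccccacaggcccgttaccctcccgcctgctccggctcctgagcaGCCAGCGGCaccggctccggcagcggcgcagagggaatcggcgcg
Hand1 held ATCAAAG at bases 193 to 199 and GCCNNNGGC at 167 to 175. Fgf8 held GGCGCC at bases 164 to 169, GTCTAG on the other strand at 4 to 9, and GCCNNNGGC at 3 places. Of 27457 promoters 3.62% held ATCAAAG, 11.8% GGCGCC, 8.65% GTCTAG and 15.7% GCCNNNGGC. Of the 25 genes named for their gap above, 19 had a promoter in the table, of which 1 held ATCAAAG, 7 GGCGCC, 2 GTCTAG and 7 GCCNNNGGC. Neither the T-box element GGTGTGA (3.81% of all promoters) nor the octamer core ATGCAAA (4.47%) was in any of the 19. Among the 9 promoters of genes named for their gap below, 1 held ATCAAAG, 2 GGCGCC, 1 GTCTAG and 1 GCCNNNGGC. Of these 9, 2 held ATGCAAA and 0 held GGTGTGA.

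Of 24 tested genes of the primitive streak and mesoderm, 12 were called higher than in all 3 other states and none lower. Tbxt (brachyury), the T-box factor of nascent mesoderm, had 64.0 and 52.0 TPM in PGCLC_d3, against 2.94 and 5.21 TPM in PGCLC_d3ag3, 0.0468 and 0.164 TPM in EpiLC and 3.09 and 3.598 TPM in ESC. Wnt5a, a ligand of non-canonical WNT signalling, had 45.1 and 39.0 TPM in PGCLC_d3, against 0.646 and 0.935 TPM in PGCLC_d3ag3, 0.757 and 1.13 TPM in EpiLC and 0.433 and 0.469 TPM in ESC. Fgf8, a streak ligand, had 118 and 92.1 TPM in PGCLC_d3, against 2.76 and 3.93 TPM in PGCLC_d3ag3, 5.05 and 7.77 TPM in EpiLC and 0.326 and 0.0792 TPM in ESC. These 3 genes had gaps of 3.09, 4.23 and 3.41. Mesp1, a mesoderm factor, had 2.14 and 1.40 TPM in PGCLC_d3 and was listed at 0 in the 6 other libraries. The summed level of 6 mesoderm markers, Hand1 among them and making up most of it in PGCLC_d3, was 58.1 to 59.7 TPM in PGCLC_d3, against 0.803 to 2.13 TPM in PGCLC_d3ag3, 3.74 to 4.44 TPM in EpiLC and 1.71 to 1.82 TPM in ESC. Tbx6, Pdgfra and Kdr averaged under 1 TPM in PGCLC_d3. Whether these transcripts came from the germ cell-like cells or from other sorted cells was not tested. Of the 15 tested HOX and CDX genes 13 were called lower in PGCLC_d3 than in ESC, with a median difference of -2.32 on the log2 scale. Against PGCLC_d3ag3 5 were called higher and 2 lower, and against EpiLC 5 higher and none lower. None was called in 1 direction against all 3 states, although without the filter on low values 1 was called higher and after quantile normalization 1 lower.

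Among 22 tested WNT targets, 10 were called higher than in all 3 other states and none lower. After quantile normalization 6 were. Notum, a secreted enzyme that inactivates WNT ligands, had 47.6 and 55.0 TPM in PGCLC_d3, against 2.53 and 3.95 TPM in PGCLC_d3ag3, 0.0996 and 0.309 TPM in EpiLC and 0.270 and 0.367 TPM in ESC. Rspo3, a ligand that amplifies WNT signalling, had 16.4 and 15.1 TPM in PGCLC_d3, against 0.489 and 0.186 TPM in PGCLC_d3ag3, 0 and 0 TPM in EpiLC and 0 and 0 TPM in ESC. Nkd1, an intracellular WNT antagonist, had 65.1 and 58.1 TPM in PGCLC_d3, against 18.9 and 21.0 TPM in PGCLC_d3ag3, 0.805 and 1.16 TPM in EpiLC and 1.92 and 1.75 TPM in ESC. The gaps of these genes were 3.30, 3.44 and 1.42. Rspo3 belongs to the primitive streak and mesoderm list and was not counted among the WNT targets. In the FGF and ERK list, 12 of 26 members were called higher and 1 lower. Dusp4, a phosphatase that switches ERK off, had 56.6 and 54.3 TPM in PGCLC_d3, against 7.59 and 9.11 TPM in PGCLC_d3ag3, 5.44 and 4.02 TPM in EpiLC and 1.17 and 1.40 TPM in ESC. In the NODAL and activin list, 3 of 20 were called higher and 1 lower, and 5 were called higher without PGCLC_d3ag3 replicate 2. Lefty2, an inhibitor of NODAL, had 87.0 and 117 TPM in PGCLC_d3, against 0.196 and 0.119 TPM in PGCLC_d3ag3, 28.3 and 32.2 TPM in EpiLC and 8.49 and 13.8 TPM in ESC.

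Among 18 amnion and trophoblast genes, 9 were called higher than in all 3 other states and none lower. The lists share members, so their counts are not separate findings. Hand1 is in this list, the BMP targets and the mesoderm list, and Dlx3 is in this list and the BMP targets. Gata3 had 7.24 and 6.21 TPM in PGCLC_d3, against 0 and 0.332 TPM in PGCLC_d3ag3, 0.0246 and 0.113 TPM in EpiLC and 0.0281 and 0 TPM in ESC. Gata2 had 7.79 and 8.79 TPM in PGCLC_d3, against 0.301 and 0.425 TPM in PGCLC_d3ag3, 0.282 and 0.139 TPM in EpiLC and 0.0295 and 0.0217 TPM in ESC. Both are GATA factors of trophoblast and blood. Of 6 amnion and trophoblast markers, Tfap2a, Elf5 and Gabrp averaged under 1 TPM in PGCLC_d3. The sum of the 6, most of it Dlx3 in PGCLC_d3, was 33.8 to 35.2 TPM in PGCLC_d3, against 5.07 to 5.16 TPM in PGCLC_d3ag3, 4.08 to 5.41 TPM in EpiLC and 6.26 to 7.67 TPM in ESC. Among 11 endoderm genes, 5 were called higher and none lower, or 3 higher with a filter of 5 TPM, and 1 was called lower after either rescaling. Sox17, an endoderm factor, had 57.5 and 45.0 TPM in PGCLC_d3, against 9.41 and 10.7 TPM in PGCLC_d3ag3, 0.676 and 0.639 TPM in EpiLC and 1.09 and 1.15 TPM in ESC. The part of other cell types in these values was not tested.

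The gene with the largest gap above was Ccnd2, which encodes cyclin D2, a regulator of entry into S phase. Ccnd2 had 319 and 347 TPM in PGCLC_d3, against 2.69 and 3.88 TPM in PGCLC_d3ag3, 3.20 and 6.11 TPM in EpiLC and 0.847 and 1.55 TPM in ESC, a gap of 5.50. Of the 26 G1 and S genes, Ccnd2 included, 5 were called higher and 2 lower, or 6 lower after median-of-ratios rescaling. Trim9, a ubiquitin ligase known from neurons, had 52.6 and 55.3 TPM in PGCLC_d3, against 0.870 and 1.13 TPM in PGCLC_d3ag3, 0.0231 and 0.213 TPM in EpiLC and 0.0267 and 0.0196 TPM in ESC. Tmprss2, a membrane serine protease, had 59.8 and 44.9 TPM in PGCLC_d3, against 0.260 and 0.224 TPM in PGCLC_d3ag3, 1.13 and 1.57 TPM in EpiLC and 0.0310 and 0 TPM in ESC. Trim9 and Tmprss2 were under 2 TPM in every library outside day 3. Pdlim4, an actin-associated protein, had 44.3 and 43.6 TPM in PGCLC_d3, against 1.14 and 1.63 TPM in PGCLC_d3ag3, 0.605 and 0.647 TPM in EpiLC and 0.440 and 0.193 TPM in ESC. Nr0b1 (DAX1), a nuclear receptor, had 29.0 and 31.6 TPM in PGCLC_d3, against 1.36 and 1.75 TPM in PGCLC_d3ag3, 0.116 and 0 TPM in EpiLC and 0 and 0 TPM in ESC. All 8 libraries of these genes are in the plot of the named genes. Just inside the rule, Alg3 and Lrpap1 had gaps of 0.001, which changed sign after either rescaling, and Cep44 and Fbxo46 were just outside at 0. On the low side Fam76b and Pum2 were just inside with gaps of 0.001, and Ffar3 and Osbpl2 just outside at 0.

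**Figure D3:**
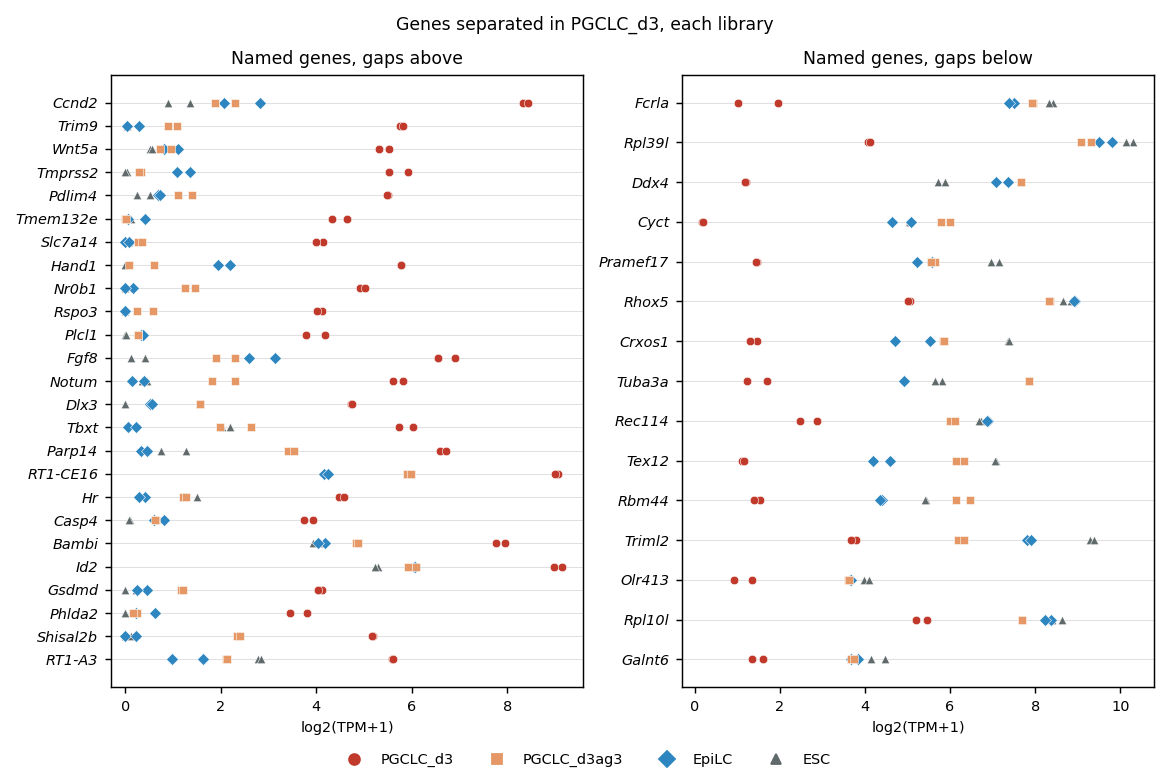
Level on the log2(TPM+1) scale (x axis) of each library for the 25 genes named for their gap above and the 15 below, the largest gaps left after the filters on symbol and level. The PGCLC_d3 points lie apart from the other 6 in every row, by 5.50 for Ccnd2 and by 5.42 for Fcrla.

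Genes of interferon response and antigen presentation were separated above in 24 of 31 tested members. Of the 31, 22 were called higher than in all 3 other states and 2 lower, and after median-of-ratios rescaling 21 were higher. Their median difference was 1.22 against PGCLC_d3ag3, 4.12 against EpiLC and 2.35 against ESC on the log2 scale. Psmb8, a subunit of the immunoproteasome, had 530.2 and 512 TPM in PGCLC_d3, against 92.2 and 102 TPM in PGCLC_d3ag3, 0.190 and 0.883 TPM in EpiLC and 0 and 0.0807 TPM in ESC. Tap1, which carries peptides into the endoplasmic reticulum, had 63.5 and 57.0 TPM in PGCLC_d3, against 6.31 and 9.09 TPM in PGCLC_d3ag3, 1.27 and 0.986 TPM in EpiLC and 0.581 and 1.31 TPM in ESC. Irf1, an interferon-responsive transcription factor, had 371 and 368 TPM in PGCLC_d3, against 122 and 132 TPM in PGCLC_d3ag3, 7.81 and 6.71 TPM in EpiLC and 42.7 and 40.9 TPM in ESC. Parp14, an ADP-ribosyltransferase, had 95.0 and 104 TPM in PGCLC_d3, against 9.61 and 10.6 TPM in PGCLC_d3ag3, 0.261 and 0.373 TPM in EpiLC and 0.676 and 1.41 TPM in ESC. In all 4 genes PGCLC_d3ag3 lay between PGCLC_d3 and EpiLC. Ifitm1 and Ifitm2, membrane proteins of the same response, were the 2 called lower. The class I genes RT1-CE16 and RT1-A3 had gaps of 3.01 and 2.74, but belong to a family of near-identical copies whose reads may be split between members, so their values are uncertain. In the RefSeq gene order, Tap2, Psmb8, Tap1 and Psmb9 are neighbours, and all 4 were separated above. So was RT1-DMb, next to Psmb9, while RT1-DMa beyond it and RT1-DOb next to Tap2 were not separated.

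The promoters of Parp14 and Psmb8 are shown as members of this group.
Parp14, chr11:78407884-78408183, plus strand: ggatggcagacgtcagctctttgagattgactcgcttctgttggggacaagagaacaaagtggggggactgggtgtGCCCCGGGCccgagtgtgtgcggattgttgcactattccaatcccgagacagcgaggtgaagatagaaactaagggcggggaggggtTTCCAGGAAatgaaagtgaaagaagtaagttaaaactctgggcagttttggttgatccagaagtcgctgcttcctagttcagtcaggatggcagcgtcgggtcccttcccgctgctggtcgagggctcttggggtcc
Psmb8, chr20:4656982-4657281, minus strand: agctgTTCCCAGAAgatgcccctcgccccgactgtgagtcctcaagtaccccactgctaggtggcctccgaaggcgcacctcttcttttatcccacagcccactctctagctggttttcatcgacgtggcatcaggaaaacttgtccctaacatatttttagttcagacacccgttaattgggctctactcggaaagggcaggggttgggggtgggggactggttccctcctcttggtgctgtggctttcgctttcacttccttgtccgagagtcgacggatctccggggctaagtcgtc
TTCNNNGAA was at bases 164 to 172 of Parp14 and 6 to 14 of Psmb8, and in 8.68% of all promoters. Of the 19 promoters of genes named for their gap above 1 held it, that of Parp14, and of the 9 below 0. A match of letters is a description, not a binding site.

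**Figure D4:**
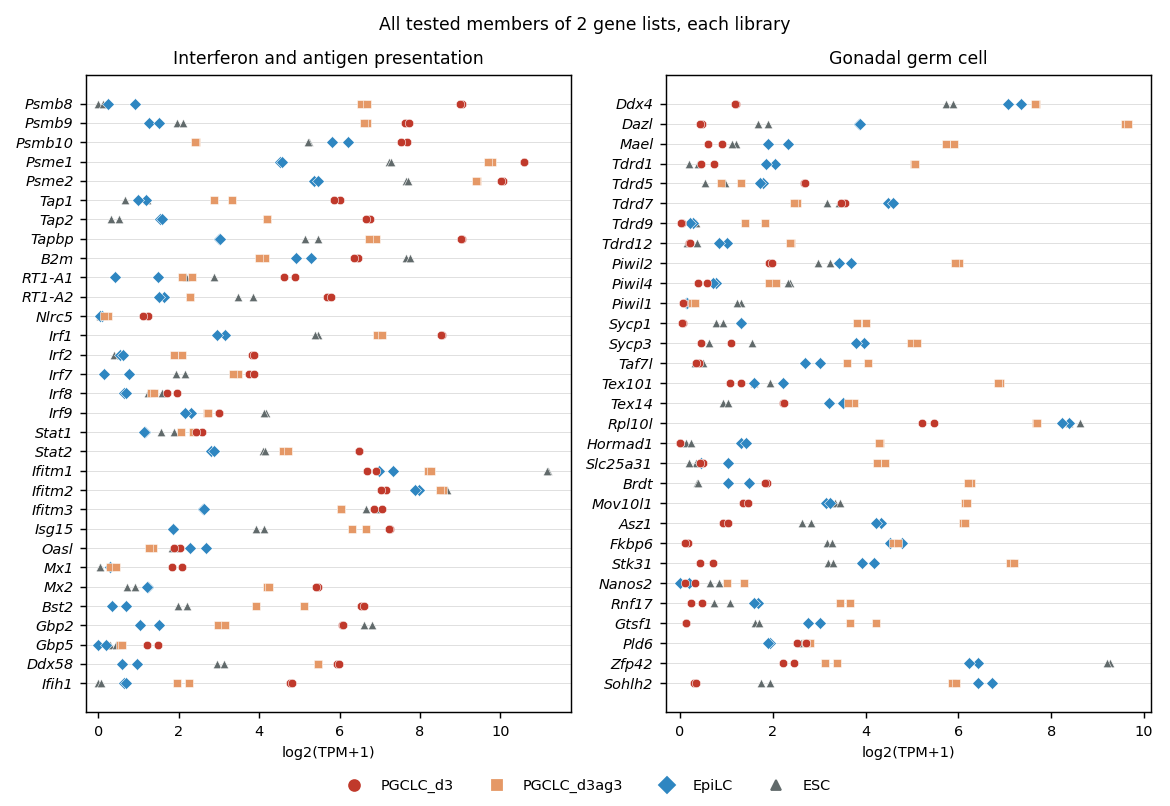
Level on the log2(TPM+1) scale (x axis) of each library for all tested members of the interferon and antigen presentation list and of the gonadal germ cell list. PGCLC_d3 is above the other 6 libraries in 24 of 31 members on the left and below them in 19 of 30 on the right.

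The germ cell specification list held genes in both directions. Of its 21 tested members, 10 were called higher than in all 3 other states and 4 lower. Among the 4 were Rhox5, Stk31, which is also in the gonadal germ cell list, and Klf2, also in the naive pluripotency list. Prdm1 (BLIMP1), a repressor of the somatic programme, had 67.6 and 65.4 TPM in PGCLC_d3, against 22.2 and 23.4 TPM in PGCLC_d3ag3, 0.142 and 0.266 TPM in EpiLC and 0.0331 and 0.0725 TPM in ESC. Prdm14, which represses differentiation genes, had 88.7 and 83.4 TPM in PGCLC_d3, against 39.7 and 35.4 TPM in PGCLC_d3ag3, 0 and 0.123 TPM in EpiLC and 16.3 and 17.5 TPM in ESC. Tfap2c, an AP-2 factor, had 487 and 498 TPM in PGCLC_d3, against 307 and 294 TPM in PGCLC_d3ag3, 8.22 and 8.71 TPM in EpiLC and 34.8 and 37.2 TPM in ESC. Their gaps were 1.44, 1.05 and 0.66, and those of Kit, the SCF receptor, and Dnd1, an RNA-binding protein, were 0.47 and 0.42. Nanos3, the gene that carries the reporter, was not separated and had 10.98 and 10.7 TPM in PGCLC_d3, against 17.2 and 15.6 TPM in PGCLC_d3ag3, 0.702 and 0.905 TPM in EpiLC and 0.385 and 0.338 TPM in ESC. It was lower in PGCLC_d3 than in PGCLC_d3ag3 by limma (log2 difference -0.56, SE 0.126, adjusted p = 0.00287). Dppa3, a factor that guards methylation in the early embryo, had 375 and 389 TPM in PGCLC_d3, against 467 and 509.9 TPM in PGCLC_d3ag3, 38.7 and 26.8 TPM in EpiLC and 1312 and 1306 TPM in ESC. Its log2 difference was -0.35, SE 0.130, adjusted p = 0.0345, and the call was lost under 9 alternatives with adjusted p of 0.0582 to 0.161, among them the omission of either library of PGCLC_d3, PGCLC_d3ag3 or ESC.

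Nanog, Sox2 and Pou5f1 were not separated, but other pluripotency genes were. In the naive pluripotency list 2 of 22 tested genes were separated above and 7 below. In the general pluripotency list 2 of 19 were above and 1 below. Over all tested genes 27.0% were above and 9.54% below. Nanog had 148 and 169 TPM in PGCLC_d3, against 142 and 157 TPM in PGCLC_d3ag3, 5.55 and 4.24 TPM in EpiLC and 933 and 912 TPM in ESC, and its log2 difference from PGCLC_d3ag3 did not pass the limma test (0.09, SE 0.105, adjusted p = 0.49). Sox2 had 217 and 227 TPM in PGCLC_d3, against 195 and 182 TPM in PGCLC_d3ag3, 26.5 and 21.2 TPM in EpiLC and 211 and 223 TPM in ESC. Its difference (0.24, SE 0.0922, adjusted p = 0.0407) lost the call under 9 alternatives, with adjusted p of 0.0519 to 0.538, again with either library of PGCLC_d3, PGCLC_d3ag3 or ESC left out. Pou5f1 (OCT4) had 181 and 191 TPM in PGCLC_d3, against 127 and 133 TPM in PGCLC_d3ag3, 289.8 and 265 TPM in EpiLC and 517 and 516 TPM in ESC and was higher in PGCLC_d3 than in PGCLC_d3ag3 (0.51, SE 0.0583, adjusted p = 3.38e-05). Klf4 did not pass (0.21, SE 0.174, adjusted p = 0.296), but passed at adjusted p = 0.0171 without PGCLC_d3ag3 replicate 2. Esrrb was higher than in PGCLC_d3ag3 (0.49, SE 0.130, adjusted p = 0.00705), except after quantile normalization (adjusted p = 0.272) and with a pseudocount of 0.1 (adjusted p = 0.0547). Klf4 and Esrrb are among 6 naive ESC markers, which summed to 178 to 200 TPM in PGCLC_d3 and 167 to 182 TPM in PGCLC_d3ag3. That sum was 84.3 to 96.6 TPM in EpiLC and 2050 to 2060 TPM in ESC. In the naive pluripotency list, 7 of 22 were called lower than in all 3 other states and 2 higher. Klf2 had 29.8 and 36.3 TPM in PGCLC_d3, against 119.8 and 147 TPM in PGCLC_d3ag3, 84.6 and 96.1 TPM in EpiLC and 1974 and 1957 TPM in ESC. Otx2, a formative epiblast factor, had 1.54 and 1.18 TPM in PGCLC_d3, against 8.20 and 7.42 TPM in PGCLC_d3ag3, 74.6 and 73.9 TPM in EpiLC and 0.432 and 0.363 TPM in ESC and was lower in PGCLC_d3 than in PGCLC_d3ag3 (-1.90, SE 0.127, adjusted p = 1.05e-06). Dnmt3a, a de novo DNA methyltransferase, was higher than in PGCLC_d3ag3 (0.49, SE 0.125, adjusted p = 0.00572) except after quantile normalization (adjusted p = 0.126). Dnmt3b did not pass against PGCLC_d3ag3 (0.15, SE 0.106, adjusted p = 0.233), with a difference of 0.292 without PGCLC_d3 replicate 2. Dnmt3b is 1 of 4 epiblast markers, which summed to 55.5 to 62.3 TPM in PGCLC_d3 and 37.5 to 42.4 TPM in PGCLC_d3ag3. Their sum was 2950 to 3180 TPM in EpiLC and 145 to 157 TPM in ESC. Over the DNA methylation list the median difference was 0.205 against PGCLC_d3ag3, -0.224 against EpiLC and -1.5 against ESC.

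Genes of gonadal germ cells were low at day 3. Of 30 tested members, 14 were called lower than in all 3 other states and 1 higher, and 19 were separated below. Their median difference was -3.86 against PGCLC_d3ag3, -1.36 against EpiLC and -0.57 against ESC on the log2 scale. Ddx4 (VASA), an RNA helicase of germ cells, had 1.30 and 1.28 TPM in PGCLC_d3, against 204 and 201 TPM in PGCLC_d3ag3, 162 and 134 TPM in EpiLC and 51.7 and 57.6 TPM in ESC, a gap of 4.52. Dazl, an RNA-binding protein that licenses gonadal germ cells, had 0.390 and 0.347 TPM in PGCLC_d3, against 763 and 806 TPM in PGCLC_d3ag3, 13.6 and 13.6 TPM in EpiLC and 2.22 and 2.75 TPM in ESC. Stk31, a Tudor domain kinase, had 0.649 and 0.353 TPM in PGCLC_d3, against 138 and 145 TPM in PGCLC_d3ag3, 17.2 and 14.3 TPM in EpiLC and 8.07 and 8.79 TPM in ESC. In these genes the day 3 libraries were lowest and PGCLC_d3ag3 highest. The promoter of Ddx4 held ATCAAAG at bases 31 to 37.
Ddx4, chr2:46015902-46016201, minus strand: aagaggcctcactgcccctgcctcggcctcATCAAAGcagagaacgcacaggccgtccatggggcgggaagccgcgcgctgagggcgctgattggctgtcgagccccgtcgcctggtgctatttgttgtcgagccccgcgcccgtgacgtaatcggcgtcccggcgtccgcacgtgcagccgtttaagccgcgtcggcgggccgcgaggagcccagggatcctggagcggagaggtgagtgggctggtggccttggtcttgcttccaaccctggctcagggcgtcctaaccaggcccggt

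Of 22 genes of meiosis, 5 were called lower and 2 higher, with 1 higher after median-of-ratios rescaling and 0 after quantile normalization. Tex12, a component of the synaptonemal complex, had 1.16 and 1.22 TPM in PGCLC_d3, against 79.5 and 69.4 TPM in PGCLC_d3ag3, 23.0 and 17.3 TPM in EpiLC and 135 and 133 TPM in ESC. Rec114, which helps form meiotic breaks, had 6.35 and 4.54 TPM in PGCLC_d3, against 63.2 and 68.3 TPM in PGCLC_d3ag3, 118 and 115 TPM in EpiLC and 105 and 102 TPM in ESC. The largest gap below, 5.57, was that of Tex19.1, which the naming rule leaves out for its symbol and which is given here after its values were seen. Fcrla, an Fc receptor-like protein, had the largest gap among the 15 genes named, with 2.90 and 1.02 TPM in PGCLC_d3, against 245 and 244 TPM in PGCLC_d3ag3, 181 and 166 TPM in EpiLC and 339 and 319 TPM in ESC. Cyct, the testis form of cytochrome c, had 0.134 and 0.154 TPM in PGCLC_d3, against 54.0 and 62.7 TPM in PGCLC_d3ag3, 32.7 and 24.0 TPM in EpiLC and 32.0 and 32.4 TPM in ESC. Rhox5, a homeobox gene of the X-linked Rhox cluster, had 32.2 and 31.2 TPM in PGCLC_d3, against 325 and 318 TPM in PGCLC_d3ag3, 486 and 479 TPM in EpiLC and 456 and 399 TPM in ESC. Rpl39l, Rpl10l, Tuba3a, Pramef17 and Olr413 were also among the 15 genes named for their gap below, but have near-identical copies and are uncertain.

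Several metabolic lists held genes called lower. In cholesterol synthesis 14 of 25 were called lower and 1 higher, with median differences of -0.99 against PGCLC_d3ag3, -0.46 against EpiLC and -0.70 against ESC on the log2 scale. Insig1, the sterol sensor, had 15.4 and 15.6 TPM in PGCLC_d3, against 63.8 and 65.7 TPM in PGCLC_d3ag3, 31.0 and 32.9 TPM in EpiLC and 67.1 and 59.0 TPM in ESC. In glycolysis 11 of 22 were called lower and none higher. Tpi1, triosephosphate isomerase, had 113 and 112 TPM in PGCLC_d3, against 310.0 and 283 TPM in PGCLC_d3ag3, 463 and 466 TPM in EpiLC and 626 and 491 TPM in ESC. In oxidative phosphorylation 7 of 32 were lower and none higher, or 12 lower after median-of-ratios rescaling and 6 after quantile normalization. The direction differed by state. Against PGCLC_d3ag3 26 were called lower and 1 higher (median difference -0.367). Against EpiLC 17 were called higher and 8 lower (median 0.212), and against ESC 11 higher and 16 lower (median -0.097).

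Imprinted genes, expressed from a single parental allele, were called higher in 8 of 21 and lower in none, or higher in 5 with a filter of 5 TPM. Peg3, a zinc finger gene, had 412 and 443 TPM in PGCLC_d3, against 64.8 and 59.5 TPM in PGCLC_d3ag3, 12.0 and 13.2 TPM in EpiLC and 8.55 and 10.9 TPM in ESC. Phlda2, a regulator of placental growth, had 12.9 and 9.86 TPM in PGCLC_d3, against 0.183 and 0.112 TPM in PGCLC_d3ag3, 0.171 and 0.533 TPM in EpiLC and 0 and 0 TPM in ESC. In the KIT and EGF receptor list 5 of 17 were called higher and none lower. Erbb3, a receptor of the EGF receptor family, had 48.8 and 47.0 TPM in PGCLC_d3, against 11.8 and 15.6 TPM in PGCLC_d3ag3, 7.32 and 8.55 TPM in EpiLC and 0.268 and 0.433 TPM in ESC. In the NOTCH and hedgehog list 6 of 18 were called higher and none lower. Notch1, a NOTCH receptor, had 20.5 and 18.9 TPM in PGCLC_d3, against 5.96 and 7.76 TPM in PGCLC_d3ag3, 2.11 and 2.51 TPM in EpiLC and 3.98 and 4.33 TPM in ESC. These shares lie closer to the 20.2% of all tested genes than those of the BMP and interferon lists. Immediate early genes were called higher in 7 of 22. In the epithelial and mesenchymal list 5 of 22 were called higher and 1 lower, near the shares of all tested genes. Krt8, a keratin of simple epithelia, had 192 and 178 TPM in PGCLC_d3, against 19.7 and 19.4 TPM in PGCLC_d3ag3, 28.0 and 28.2 TPM in EpiLC and 49.0 and 56.2 TPM in ESC. In the G2 and M list 5 of 22 were higher and 2 lower as deposited, but 1 higher and 6 lower after median-of-ratios rescaling, so no direction is given. Cytosolic ribosomal protein genes were called higher in 2 of 27 and in 0 to 5 under the alternatives. Histone methylation genes were called higher in 5 of 24, and in 2 without either PGCLC_d3 library, without EpiLC replicate 1 or after rescaling.

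**Figure D5:**
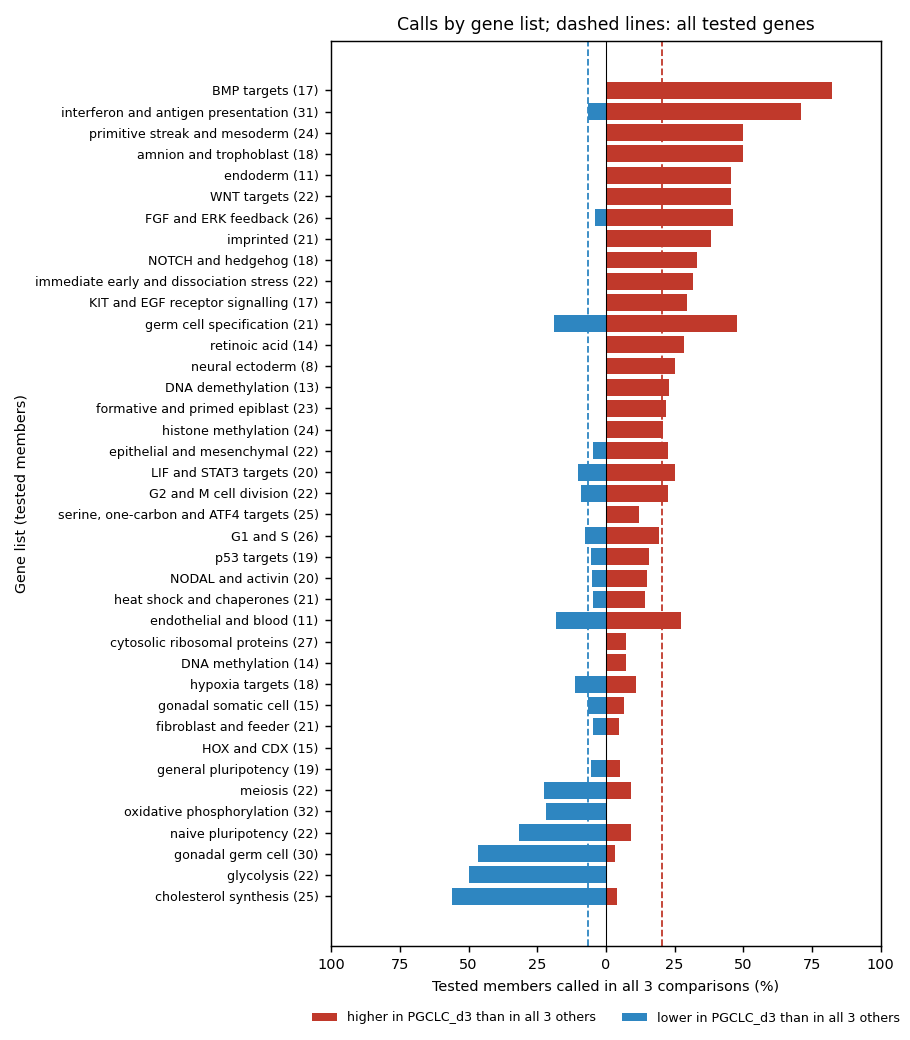
Share of tested members of each list (y axis, tested members in brackets) called higher (right) or lower (left) in PGCLC_d3 than in all 3 other states, in percent (x axis). Dashed lines mark all tested genes, 20.2% higher and 6.43% lower.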

How the data were processed

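RNA sequencing of 8 rat libraries in 4 groups was used. The titles gave each library its group and number. Per the labels' protocols, RNA was extracted with PicoPure and libraries made with SMART-Seq v4 and KAPA Hyper Prep. Per the submitters' processing notes, bcl2fastq 2.20, cutadapt 1.1.6, HISAT2 2.1.0, featureCounts of Subread 1.6.5 and the build rn7 were used. The table deposited by the authors holds log2(TPM+1) per gene and library. The 11066 rows without a gene name hold no values and were left out.

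Genes with at least 1 TPM in at least 2 libraries were fitted with limma 3.58.1 in R 4.3.3 (all 4 groups, trend, 2-sided, 4 residual degrees of freedom), with Benjamini-Hochberg adjusted p under 0.05 over 13571 genes. The code of the fit was run on simulated data in which few genes differed, unlike in the real libraries. No conclusion is drawn from that run. The members, the 39 gene lists and the rule for named genes were chosen with earlier results of these data known. That rule takes the 25 largest gaps above and 15 below with at least 10 TPM in PGCLC_d3 (above) or in the lowest other library (below), leaving out clone-style symbols (such as LOC and RGD) and symbols that end in a dot and a number, up to 4 separated members of each list with at least 5 TPM, 18 genes named in advance, and the genes at the threshold. Some genes that it names are not reported here. Mesp1, Irf1, Ifitm1 and Ifitm2 fall outside it and were chosen after their values were seen. Promoters were matched by symbol. Replicate numbers correlated at -0.0374 to 0.0662 between groups, so they were not taken as pairs.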

Additional observations from a re-analysis of the deposited data

How the results depend on the processing

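Of 351 recomputed counts over all tested genes or over all lists together, 347 stayed within 1.5 times the reported value. Counts for single lists, many of them small, moved further in 99 of 1170 values, 40 of them after a rescaling. The exceptions among the 351 were the genes lower in PGCLC_d3 than in all 3 other states (873), which numbered 1467 after median-of-ratios rescaling and 1468 after quantile normalization, and the genes separated below (1295), which numbered 2110 and 2124. The 351 include counts of separated genes with a library left out, which could not fall below the reported value. Of the 873 genes, 873 were also called after median-of-ratios rescaling, as were 1884 of the 2747 higher genes. Of 158 named genes with a gap, 17 changed sign under an alternative, and this was after rescaling in each. No other alternative could turn a positive gap negative. Leaving out a library can only keep or widen a gap, and a pseudocount of 0.1 keeps the order of the values. After median-of-ratios rescaling the gaps above were -0.2686 for Alg3, -0.2547 for Lrpap1, -0.1532 for Rpl3, -0.1511 for Tcf3, -0.1472 for Mbd1, -0.1343 for Chac1, -0.1146 for Atf5, -0.1111 for Rps23, -0.06211 for Skil, -0.045 for Apex1, -0.04282 for Foxh1, -0.04183 for Mbd2 and -0.03371 for Bax. After quantile normalization they were -0.2585 for Atf5, -0.1942 for Mbd1, -0.1576 for Kdm4a, -0.1551 for Alg3, -0.1098 for Cblb, -0.09987 for Dot1l, -0.08856 for Lrpap1, -0.08081 for Foxh1, -0.078 for Skil, -0.04025 for Cdh2 and -0.01031 for Chac1. The log2 difference between PGCLC_d3 and PGCLC_d3ag3 was reversed for Nanog (-0.0866 after median-of-ratios rescaling, -0.012 without PGCLC_d3 replicate 2), Klf4 (-0.0641 after quantile normalization, -0.0545 without PGCLC_d3ag3 replicate 1) and Dnmt3b (-0.0173 and -0.101 after the 2 rescalings), none of which had passed the test. With 1 library left out these differences ranged from -0.012 to 0.182 for Nanog and from -0.0545 to 0.481 for Klf4. The cause was not tested.

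With 1 library left out, the lone library of a group was assumed to vary like the others. The genes higher than in all 3 other states then numbered 2213 to 2797, those lower 660 to 899, those separated above 3696 to 4013 and those separated below 1343 to 1523. The counts of separated genes could not fall below the 3670 above and 1295 below found with all libraries, since leaving out a library only loosens the rule. Their ranges therefore do not measure stability. With the replicate number as a block, 2775 genes were higher and 857 lower, of which 2707 and 844 were also called without it. The numbers were not shown to pair the samples. Depth is known in relative terms only, so low values carry no counting interval.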
